A study of Hordeum vulgare with 21 samples.

Results

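A small set of messages that were abundant in dry barley grain dropped to a low level by the end of steeping and stayed low through germination. The set holds 27 of the 35826 genes in the deposited table. It was chosen by TPM, the abundance of a gene per transcript length, scaled to one total per library. A gene entered with a mean of at least 20 TPM in dry grain and a mean at or under 12.5% of the dry mean at each of the 6 later stages. The drop after Dry is therefore what chose the genes, and its values are given as a description, with no test. In bulk tissue, fewer cells of a type and less RNA per cell cannot be told apart, and a lower TPM is a lower share of the pool.

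A mature cereal grain dries down with messenger RNA still in it. These stored messages were made while the grain formed on the plant, and they can be translated when water returns, before and beside new transcription. Steeping is the first step of malting: grain takes up water, the living embryo and aleurone resume metabolism, and the starchy endosperm, whose cells are dead at maturity, is later broken down by enzymes from both.

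The grain was whole seed of the 2-row spring malting cultivar Conrad of Hordeum vulgare, of one genotype at every stage. The groups were dry unmalted grain (Dry), grain out of steep after 38 h of wetting to 45% moisture (DoG0), and grain germinated at 17 °C for 1, 2, 3, 4 or 5 days (DoG1 to DoG5), with 3 libraries each, A, B and C, and 21 libraries in all. The malted libraries came from 3 malting runs of 110 g drawn from one pooled lot, and the dry ones had no malting run behind them. P-values thus measure the spread between runs and samples of one lot, which may be technical. Totals of expected counts, the estimated reads per gene, were 18145400 to 31582116 per library. The TMM factor, which rescales library sizes, was 0.740 in Dry A and 0.887 to 1.10 in the other libraries.

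No member could be given a name or a role, because none of the 35826 IDs matched the gene table at hand. Members are called by their IDs without the shared start HORVU.MOREX.r3., so that HORVU.MOREX.r3.5HG0500190 is 5HG0500190. The code before the G is the chromosome: 1H to 7H held 5, 7, 2, 5, 5, 1 and 2 members. The members with the highest dry mean, 5HG0500190 and 1HG0061770, and 4HG0346270 and 2HG0122750, with the largest called rise at DoG5 relative to DoG0, were named by a set rule. The other IDs below were chosen after their values were seen.

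The members made up 4.86%, 2.39% and 1.56% of all TPM in Dry A, B and C. Their share was 0.233% ± 0.0359 at DoG0, 0.0721% ± 0.0471 at DoG1, 0.110% ± 0.00849 at DoG2, 0.117% ± 0.0158 at DoG3, 0.119% ± 0.0198 at DoG4 and 0.148% ± 0.00773 at DoG5 (SD, n = 3 each). The dry libraries differed widely among themselves and lay above every malted library, and among the malted stages the mean was lowest at DoG1. One gene weighed on these sums: 5HG0500190 was 45.7% of the members' TPM in Dry A and 82.5% in DoG1 C. Without it, the shares were 1.88% ± 0.785 in Dry, 0.143% ± 0.0146 at DoG0, 0.0191% ± 0.00388 at DoG1 and 0.0970% ± 0.00766 at DoG2.

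**Figure D1:**
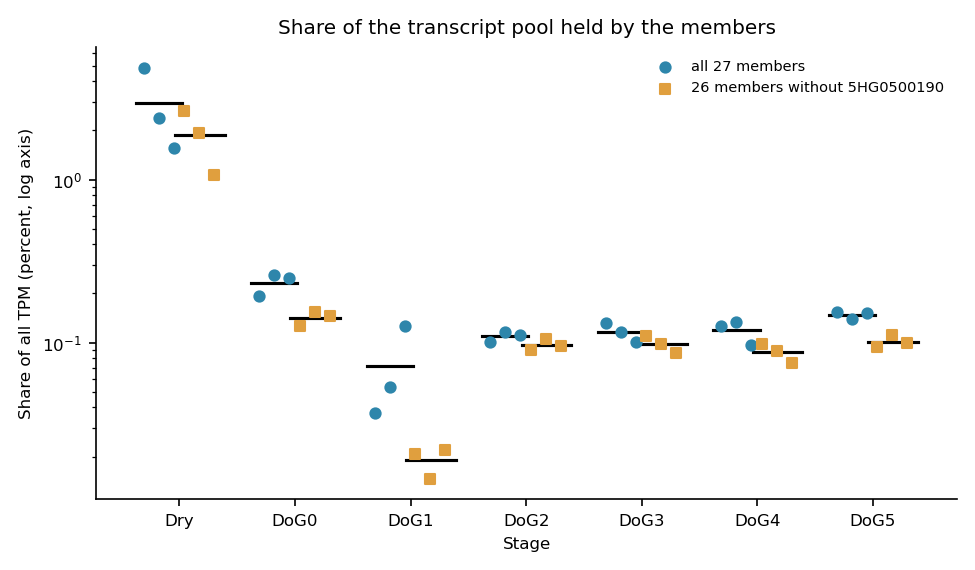
Share of all TPM held by the 27 members (percent, log axis) at each stage from Dry to DoG5; circles are libraries, squares the same without 5HG0500190, and black lines stage means. The members held 4.86%, 2.39% and 1.56% in Dry A, B and C and 0.233% ± 0.0359 at DoG0.

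The 27 members were 0.426% of the 6340 genes with at least 20 TPM in dry grain. At DoG0, 187 of those 6340 genes, or 2.95%, stood at or under 12.5% of their dry mean. Of the 187, the 27 members, or 14.4%, stayed there at every later stage, and 160 came back above it. The returning 160 reached a median highest later mean of 71.3% of dry, 114 of them were highest at DoG5, and 50 passed their dry mean. Near the threshold, the members with the highest later means stood at 12.0%, 11.8% and 11.4% of dry, and the nearest genes outside at 12.8%, 13.4% and 13.4%. The lowest dry means inside were 20.4, 22.4 and 25.5 TPM, and the genes just outside had 19.97, 18.3 and 14.6 TPM.

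Lost, for most of this set, meant reduced and not gone. The median member had 101 TPM in Dry, 9.02 at DoG0, 3.70 at DoG1, 7.85 at DoG2, 4.53 at DoG3, 4.92 at DoG4 and 5.60 at DoG5. Relative to its own dry mean, the median member kept 6.97% at DoG0, 1.19% at DoG1, 3.05% at DoG2, 3.69% at DoG3, 4.03% at DoG4 and 4.72% at DoG5. Among the malted stages 15 of the 27 were lowest at DoG1, 15 were highest at DoG0 and 7 were highest at DoG5. Of the 27, 6 had 0 counts in at least 1 malted library. Among these, 2HG0100710 had 0 counts in 15 malted libraries and 5HG0465310 in 11.

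**Figure D2:**
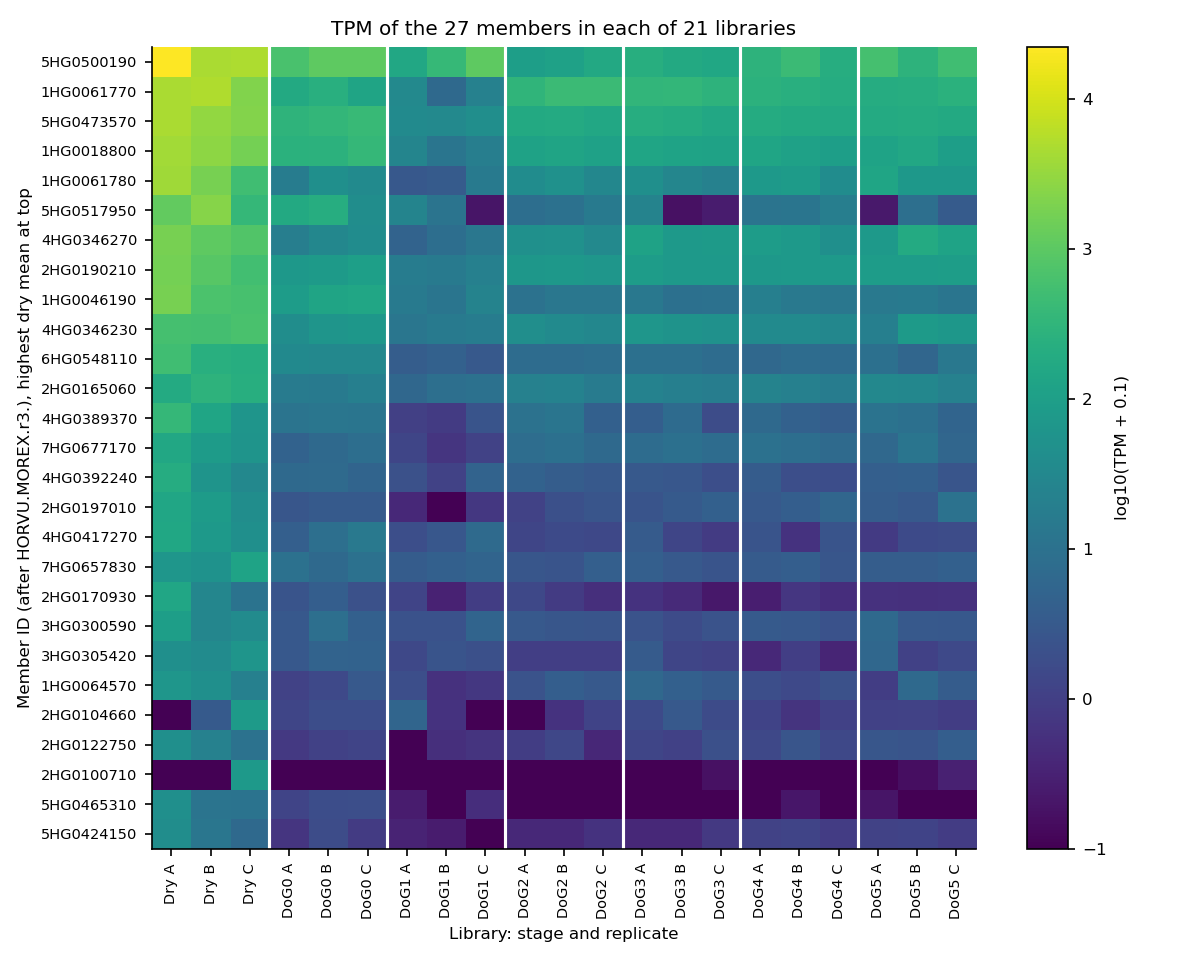
TPM of the 27 members (rows, by dry mean) in the 21 libraries (columns, Dry A to DoG5 C, in stage order), coloured by log10(TPM + 0.1). Dry columns are high in nearly all rows, DoG1 has the lowest malted mean in 15 rows, and 2 rows are high in Dry C alone.

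The most abundant member was 5HG0500190. It had 22217, 4625 and 4840.1 TPM in Dry A, B and C, then 657, 1036 and 1027 at DoG0, 163, 390.5 and 1037 at DoG1, and 99.4, 114 and 166 at DoG2. It had 221, 181 and 151 TPM at DoG3, 283, 445 and 211 at DoG4, and 599, 284 and 518 at DoG5. Dry A alone was more than 4 times the other dry libraries, and DoG1 C was as high as the DoG0 libraries, while DoG1 A and B were lower. Its transcript length, relative to the median gene of a library, was 0.10, so each count weighed heavily in TPM.

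The next, 1HG0061770, dipped at DoG1 and came back. It had 4606, 5132 and 2121 TPM in Dry, 177, 240.1 and 129.9 at DoG0, 33.4, 6.72 and 21.8 at DoG1, and 322, 436 and 439 at DoG2. The DoG1 libraries lay under all DoG0 libraries, and the DoG2 libraries lay above both. Its mean stayed between 228 and 316 TPM from DoG3 to DoG5, far under dry grain. Expected counts of 1HG0061770 were fractional in 10 libraries, which marks reads shared with a similar gene, so its split from such a gene is uncertain. The same held in 6 libraries each for 1HG0061780 and 5HG0424150, in 3 for 5HG0517950 and in 1 for 2HG0197010.

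The members 5HG0473570 and 1HG0018800, at a similar dry level, also dipped at DoG1 and rose at DoG2, but stayed under their DoG0 level. In the A, B and C libraries, 5HG0473570 had 4639.7, 2977 and 2313 TPM in Dry, 302, 352 and 409.7 at DoG0, 35.8, 32.6 and 42.8 at DoG1, 178, 182 and 160.5 at DoG2, and 185, 192 and 177 at DoG5. The libraries of each stage lay close together from DoG0 on, with no overlap between DoG1 and either neighbour. In turn, 1HG0018800 had 4038, 2685 and 1734 TPM in Dry, 264, 279 and 371 at DoG0, 26.8, 12.1 and 19.7 at DoG1, 119, 131 and 114 at DoG2, and 129, 157 and 99.2 at DoG5.

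A different course was that of 1HG0046190, which did not come back. It had 1788, 693 and 604 TPM in Dry, 91.4, 130.3 and 144 at DoG0, 16.0, 12.0 and 24.2 at DoG1, 10.3, 12.9 and 12.9 at DoG2, and 14.5, 15.1 and 12.0 at DoG5. From DoG1 on, every library was under all DoG0 libraries.

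In 5HG0517950 the libraries of a stage disagreed. It had 177, 211 and 42.6 TPM at DoG0, against 1157, 2331 and 360.1 TPM in Dry. Expected counts at DoG1 were 477, 320 and 3, at DoG3 705, 2 and 4, and at DoG5 4, 257 and 56. At each of those malted stages at least 1 library held 4 counts or fewer, beside one with 257 counts or more.

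Further members with high dry levels came back to about their DoG0 level. In 2HG0190210 the dry libraries had 1668, 917 and 526 TPM, against means of 85.4 ± 16.1 at DoG0, 18.2 ± 3.14 at DoG1 and 92.5 ± 2.45 at DoG5 (SD, n = 3 each). In 4HG0346230 the dry libraries lay close together, at 598, 549 and 642 TPM. Its means were 56.3 ± 12.9 TPM at DoG0, 15.1 ± 2.29 at DoG1 and 56.1 ± 32.3 at DoG5, where library A had 19.9 TPM and the others 82.1 and 66.2. In 6HG0548110 the level came back less: it had 504, 232 and 213 TPM in Dry, 34.1, 30.9 and 30.6 at DoG0, 3.62, 4.53 and 2.95 at DoG1, and 9.15, 5.69 and 13.4 at DoG5.

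The less abundant members given here stood at 14.2 TPM or less in every DoG0 library. In 4HG0389370 the DoG0 libraries had 11.5, 12.6 and 11.7 TPM, against 371, 142 and 62.0 TPM in Dry. For 4HG0392240 the values were 6.73, 6.90 and 5.21 TPM at DoG0 and 205, 59.5 and 30.6 TPM in Dry. For 4HG0417270 they were 4.08, 8.80 and 14.2 TPM at DoG0 and 151, 77.3 and 45.2 TPM in Dry. For all 3, Dry A was highest and Dry C lowest. In 7HG0657830, by contrast, Dry C was highest, with 9.66, 6.54 and 9.58 TPM at DoG0 and 65.2, 53.6 and 125 TPM in Dry A, B and C. In 2HG0170930 the DoG5 libraries had 0.490, 0.460 and 0.470 TPM, against 144, 28.9 and 10.9 TPM in Dry, where Dry A was more than 4 times the others. The dry libraries of 3HG0300590 had 97.3, 28.6 and 37.3 TPM, and those of 5HG0424150 had 41.8, 12.7 and 6.62, again with Dry A highest.

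Some members rested on 1 dry library. The 2 least replicated, 2HG0100710 and 2HG0104660, had 0, 0 and 76.4 TPM and 0, 3.21 and 81.4 TPM in Dry A, B and C. Their dry expected counts were 0, 0 and 953 for 2HG0100710, and 0, 5 and 125 for 2HG0104660. For both, Dry C held nearly all dry counts, and neither passed the filter on low counts, so 25 of the 27 members were tested.

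Among the members, Dry A tended to stand above the other dry libraries. It was the highest dry library for 19 of 27 members (70.4%), against 772 of the other 6313 genes with at least 20 TPM in dry grain (12.2%) and 78 of the returning 160 (48.8%). The median ratio of Dry A to Dry C was 3.00 among members and 0.788 among those others, and 0.975 in the shortest 20% of the others by transcript. Among the returning 160 genes the ratio was 1.39. Since the dry mean chose the members, these counts carry no test.

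All 3 dry libraries were above all 18 malted libraries for 25 of the 27 members, which the choice of members favours, and for 12.0% of the other dry-abundant genes and 65 of the returning 160 (40.6%). No member had its lowest dry library at 8 times its highest malted library or more; the highest such ratio was 6.69 and the median of the members was 4.43. Had the dry mean been taken without Dry A, 14 genes would have met the rule, and 12 of them were members. Those 12 are 1HG0061770, 1HG0061780, 5HG0517950, 4HG0346230, 2HG0165060, 4HG0389370, 7HG0677170, 2HG0197010, 7HG0657830, 3HG0305420, 2HG0104660 and 2HG0100710.

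**Figure D3:**
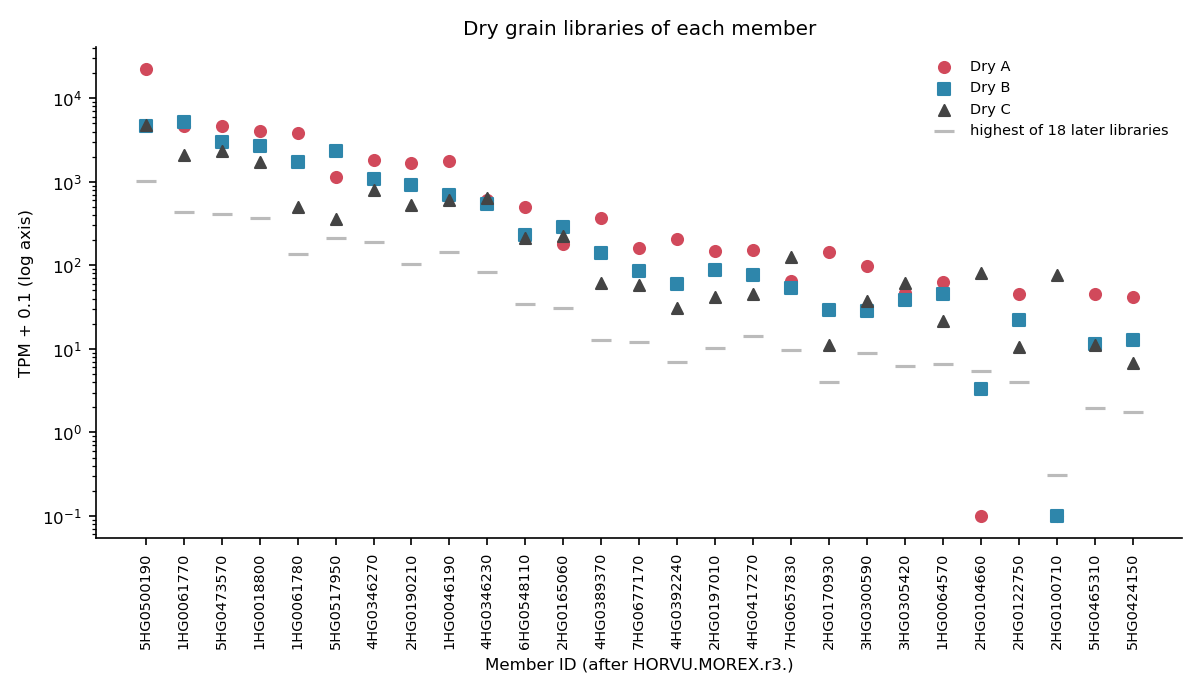
TPM + 0.1 (log axis) of each member, along the horizontal axis, in Dry A, B and C, with a grey dash for the highest of its 18 malted libraries. Dry A is the highest dry library for 19 of the 27 members, and 2HG0100710 and 2HG0104660 are high in Dry C alone.

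The rule did not use transcript length, though TPM divides by it. Relative length, from expected count over TPM, had a median of 0.445 among members (0.0664 to 1.00), 0.942 among the other dry-abundant genes, 0.516 among the returning 160 and 0.978 among all tested genes. Of the members, 20 of 27 (74.1%) were in the shortest 20% of the tested genes, against 20.3% of the other dry-abundant genes and 94 of the returning 160 (58.8%). From the dry libraries alone the members' median was 0.446. Its part in the choice of members was not tested; the calls after steeping, described next, were also counted with a trend over length removed from each library.

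The changes after steeping are open to test, since the rule compared every later stage with Dry and not with each other, though it caps how far a member could rise. Stage means of 20637 genes were fitted in edgeR's quasi-likelihood model to all 21 libraries, with Benjamini-Hochberg adjustment over all tested genes and a threshold of 0.05. By that test 22 of the 25 tested members changed over DoG0 to DoG5, and 79.7% of all tested genes did.

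On day 1 of germination most of the tested members went down further. Of 25 tested members, 17 fell at DoG1 relative to DoG0 and 0 rose, beside 23.8% of all tested genes that fell and 28.4% that rose. The median log2 fold change was -2.22 among members and 0.06 among all tested genes, and 39.2% of the other 6313 dry-abundant genes fell. Of the returning 160 genes, 50 fell and 37 rose, with a median of -0.36. The rule caps how far a member could rise at DoG1, so the choice of members favours a lack of rises. At an unadjusted p under 0.05, 19 members were lower at DoG1 and 0 higher, beside 26.5% of all tested genes that were lower. DESeq2 called 19 members on day 1 and limma 16 or 20, with a pseudocount of 1 or 0.1 TPM, and none of these rose. Of the 17, 5HG0465310 and 5HG0424150 passed the filter on low counts through their dry counts alone. Their highest malted counts were 15 and 9, so these calls rest on few reads. Of the 23 members that passed on the malted libraries alone, 15 fell and 0 rose. With the length trend removed, 19 members were called on day 1 and 13 on day 2.

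The size of the day 1 drop varied widely. The member 1HG0018800 had 19.5 ± 7.34 TPM at DoG1 and 305 ± 57.8 at DoG0 (SD, n = 3 each), a log2 fold change of -4.11 (SE 0.37, edgeR adjusted p = 3.45e-07). For 5HG0473570 the levels were 37.1 ± 5.19 TPM at DoG1 and 354 ± 54.0 at DoG0, with a log2 fold change of -3.38 (edgeR adjusted p = 2.17e-07). For 1HG0061770 they were 20.6 ± 13.4 TPM at DoG1 and 182 ± 55.3 at DoG0, with a log2 fold change of -3.31 (SE 0.45, edgeR adjusted p = 1.28e-05). The smallest called drop was in 7HG0657830, with a log2 fold change of -1.09 (SE 0.28, edgeR adjusted p = 0.00343). In 21 of the 27 members (77.8%), tested or not, all DoG1 libraries lay under all DoG0 libraries, as in 22.7% of all tested genes and 34.8% of the other dry-abundant genes.

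Of the 8 tested members that were not called on day 1, 5HG0500190 had the highest level. It had 529.9 ± 453 TPM at DoG1 and 906 ± 216 at DoG0, a log2 fold change of -0.89 (SE 0.65, edgeR adjusted p = 0.26), a difference within the spread of the DoG1 libraries. The calls of 1HG0061780 (adjusted p = 0.0277) and 5HG0517950 (adjusted p = 0.0368) on day 1 by edgeR were each lost when single libraries were left out: DoG0 B or C or DoG1 A or B for 1HG0061780, and DoG0 A or B or DoG1 B or C for 5HG0517950.

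On day 2 many of the same members rose. At DoG2, 13 of 25 rose and 1 fell relative to DoG1, beside 19.7% of all tested genes that rose and 17.0% that fell. The median log2 fold change was 1.44 among members and -0.01 among all tested genes. Among the returning 160 genes, 135 rose, which their choice favours. Of the 13 members that rose, 12 were among the 17 that had fallen on day 1, and the other was 1HG0064570 (log2 fold change 1.91, SE 0.71, edgeR adjusted p = 0.0425), whose call was lost with the length trend removed. The day 1 and day 2 comparisons share the DoG1 libraries, so low values at DoG1 enter both. In 14 of the 27 members (51.9%) all DoG2 libraries lay above all DoG1 libraries, as in 19.1% of all tested genes. In 2 members (7.41%), 4HG0417270 and 3HG0305420, they all lay under the DoG1 libraries, as in 35.7% of all tested genes.

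The rise was steepest in 1HG0061770, with 399 ± 66.7 TPM at DoG2 and 20.6 ± 13.4 at DoG1 (log2 fold change 4.48, SE 0.47, edgeR adjusted p = 1.63e-06). For 7HG0677170 the libraries had 7.86, 9.47 and 6.65 TPM at DoG2 and 1.24, 0.560 and 1.03 at DoG1, with no overlap (log2 fold change 3.29, SE 0.50, edgeR adjusted p = 8.03e-05). The single fall was in 5HG0500190, with 126 ± 34.7 TPM at DoG2 and 529.9 ± 453 at DoG1 (log2 fold change -1.92, SE 0.67, edgeR adjusted p = 0.0329). DoG1 C carried that fall: without it the log2 fold change was -0.97 (adjusted p = 0.28), and the call was also lost without any one of the DoG2 libraries (adjusted p 0.0538 to 0.109). DESeq2 called 13 members on day 2, all higher, and gave 5HG0500190 no p-value.

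**Figure D4:**
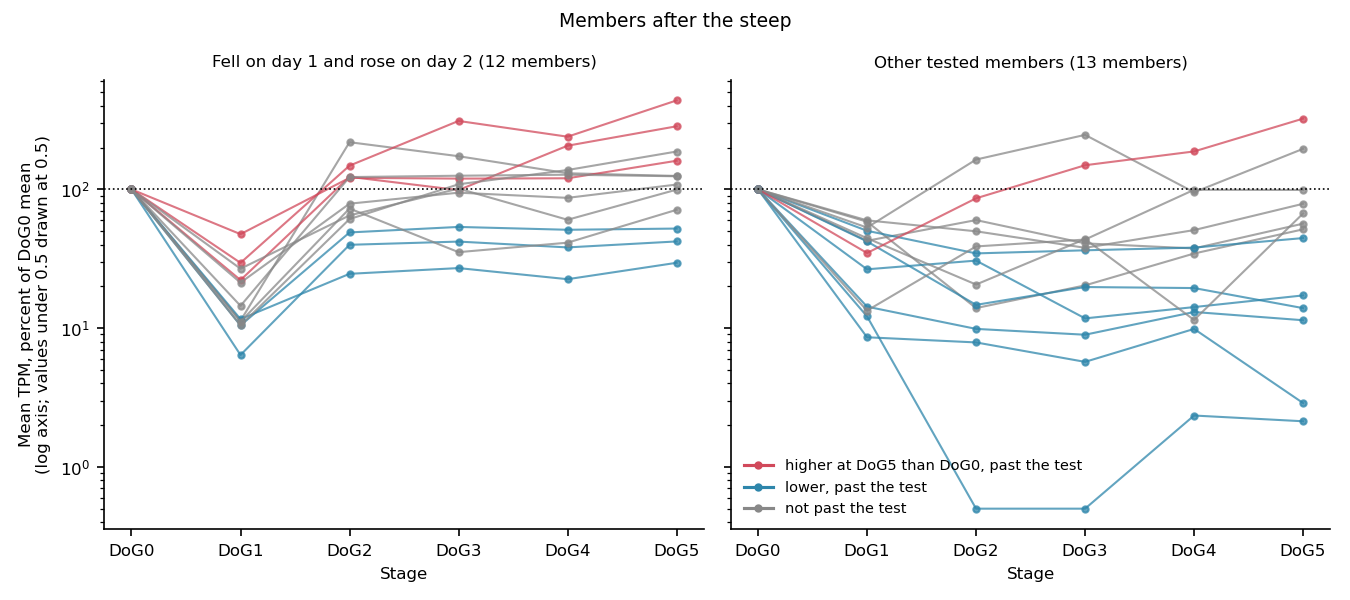
Stage means of the 25 tested members as a percent of their own DoG0 mean (log axis) from DoG0 to DoG5, with values under 0.5% drawn at 0.5%, and colours for the call at DoG5 relative to DoG0. The 12 members in the left panel, which fell on day 1 and rose on day 2, stand at 6.41% to 47.6% at DoG1 and 29.6% to 438% at DoG5.

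The 12 members that fell on day 1 and rose on day 2 were 1HG0061770, 5HG0473570, 1HG0018800, 1HG0061780, 4HG0346270, 2HG0190210, 4HG0346230, 6HG0548110, 2HG0165060, 4HG0389370, 7HG0677170 and 2HG0197010. At DoG1 they held 6.41% to 47.6% of their own DoG0 mean (median 13.0%), and at DoG5 29.6% to 438% of it (median 116%). Of these 12, 3 were higher and 3 lower at DoG5 than at DoG0 by the test, and 6 were not called. Another 5 members fell on day 1 with no call on day 2, and 4 of these were also lower at DoG5 than at DoG0. The remaining tested members were 5HG0500190, 1HG0064570 and 6 with no call on either day.

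After day 2 neither edgeR nor limma called a step in any tested member. At DoG3 relative to DoG2, DoG4 relative to DoG3 and DoG5 relative to DoG4, edgeR called 0 of 25 each time, where 1.98%, 0.150% and 0.126% of all tested genes were called. At an unadjusted p under 0.05 there were 1, 3 and 3 members, beside 16.0%, 10.2% and 7.19% of all tested genes. DESeq2 called 0, 0 and 1, and limma called 0 each time. The member called by DESeq2 was 3HG0305420, which had 6.09, 0.960 and 1.44 TPM at DoG5 and 0.320, 0.870 and 0.260 at DoG4, and whose highest value was a single library.

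Between the end of steeping and day 5 some members rose, some fell and others had no call. At DoG5, 4 of 25 (16%) were higher and 9 (36%) lower than at DoG0. Beside them, 36.0% of all tested genes rose and 30.8% fell. The share of members that fell was thus near that of all tested genes, and the rule caps how far a member could rise. The median log2 fold change was -0.41 among members and 0.05 among all tested genes. Of the returning 160 genes, 157 rose; their choice rests on such a return.

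The clearest rise was in 4HG0346270, which had 74.5, 189 and 127 TPM at DoG5 and 19.3, 30.2 and 39.8 at DoG0. The stages did not overlap, and the log2 fold change was 2.17 (SE 0.45, edgeR adjusted p = 3.91e-04), a call that held without any single library. Its dry libraries had 1800.0, 1069 and 803 TPM. In 2HG0165060 the levels were 27.8 ± 4.63 TPM at DoG5 and 17.3 ± 2.50 at DoG0 (log2 fold change 0.75, SE 0.21, edgeR adjusted p = 0.00446).

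The other 2 rises were fragile. In 2HG0122750 the expected counts were 20, 17 and 17 at DoG5 and 4, 6 and 7 at DoG0, with a log2 fold change of 1.69 (SE 0.67, edgeR adjusted p = 0.0332). The call was lost without DoG0 A, B or C or DoG5 A or C (adjusted p 0.0533 to 0.105). In 1HG0061780 the libraries had 137, 69.4 and 71.9 TPM at DoG5 and 17.2, 45.0 and 35.7 at DoG0, with no overlap (log2 fold change 1.56, SE 0.67, edgeR adjusted p = 0.0491). Its call was lost without any one of those libraries other than DoG0 B.

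The 9 members lower at DoG5 were 5HG0473570, 1HG0018800, 5HG0517950, 1HG0046190, 6HG0548110, 4HG0417270, 7HG0657830, 2HG0170930 and 5HG0465310. Of the abundant ones, 1HG0046190 had 13.9 ± 1.64 TPM at DoG5 and 122 ± 27.2 at DoG0 (log2 fold change -3.08, SE 0.44, edgeR adjusted p = 8.2e-06). For 5HG0473570 the levels were 185 ± 7.56 TPM at DoG5 and 354 ± 54.0 at DoG0 (log2 fold change -0.89, SE 0.26, edgeR adjusted p = 0.00605). The scarcest was 5HG0465310, whose expected counts were 1, 0 and 0 at DoG5 and 9, 14 and 15 at DoG0. Only its dry counts took it through the filter; of the 23 members that passed on the malted libraries alone, 8 were lower at DoG5. It had 0 counts in 11 malted libraries, where a lower level was not detectable at this depth.

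The fit also covered the contrasts with dry grain, and these only restate the choice of members. At DoG0, 25 of 25 tested members were called lower than in Dry, beside 32.0% of all tested genes, with log2 fold changes of -6.74 in 1HG0061780 to -3.81 in 5HG0517950. At DoG5, 25 of 25 were called lower than in Dry, beside 32.5% of all tested genes. Nothing is read from either count.

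The calls after steeping were also counted in members that do not rest on Dry A. Among the 12 members that met the rule without Dry A, 10 were tested: 9 fell on day 1, 7 rose and 0 fell on day 2, and at DoG5 relative to DoG0 2 rose and 2 fell. Among the other 15, 8 fell on day 1, 6 rose and 1 fell on day 2, and at DoG5 relative to DoG0 2 rose and 7 fell. Beside them, 23.8% of all tested genes fell on day 1, and 19.7% rose and 17.0% fell on day 2. At DoG5 relative to DoG0, 36.0% of all tested genes rose and 30.8% fell. The difference between the 12 and the other 15 members was not tested.

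A few members sat beside each other in the order of IDs. The pair 1HG0061770 and 1HG0061780 were consecutive rows, and 4HG0346230 and 4HG0346270 were 2 rows apart. The next IDs after the first pair, 1HG0061790, 1HG0061800 and 1HG0061820, are not members, and were singled out after their values were seen. In ID order the run of 5 had dry means of 3953, 2026, 166.9, 284.5 and 184.7 TPM, and DoG0 means of 182, 32.6, 6.10, 9.92 and 5.83 TPM. All 5 thus stood at 1.61% to 4.61% of dry at DoG0. They differed later: at DoG2 the means were 399, 40.2, 62.2, 199 and 74.7 TPM, and the highest later means were 10.1%, 4.59%, 37.3%, 82.8% and 55.6% of dry. The members of this run stayed low relative to a high dry level. Their non-member neighbours came back to a larger part of a lower one. The rule itself sets the direction of this contrast. A dry-abundant gene this low at DoG0 is left out only if a later mean passes the limit. The sizes are therefore a description, with no test.

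**Figure D5:**
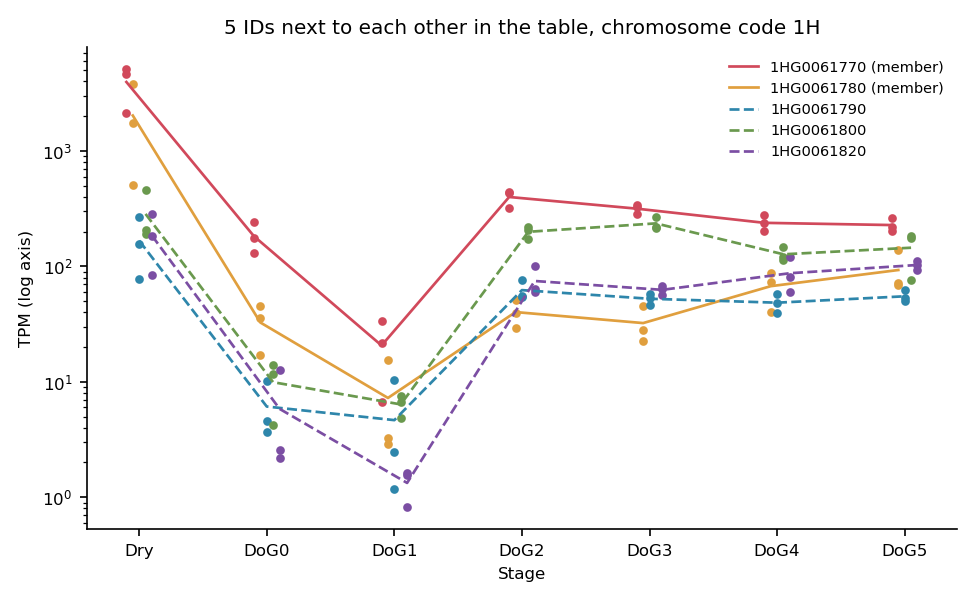
TPM (log axis) of 5 neighbouring IDs from Dry to DoG5; points are libraries, solid lines the means of the 2 members and dashed lines those of the 3 other genes. All 5 were lower at DoG0 than in Dry and lowest at DoG1. The members stayed at or under 4.59% and 10.1% of their dry mean, against highest later means of 37.3% to 82.8% in the other 3. The rule that chose the members sets the direction of that difference.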

How the data were processed

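RNA was sequenced from whole grain at 7 stages with 3 libraries each. The authors deposited expected counts per gene, estimated reads that need not be whole, and TPM, abundance per length scaled to one total per library. Per the submitters' processing notes, the tools were STAR and RSEM, without version. Genome build, annotation and strand setting were not given in the sources used here. Per the labels' protocols, libraries were poly-A selected with a kit that keeps the strand.

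Members were found from stage means of the deposited TPM. Expected counts were rounded to whole numbers, filtered by filterByExpr (minimum count 10, minimum total 15), which left 20637 genes, and scaled by TMM. One quasi-likelihood fit of 7 stage means (edgeR 4.0.16, R 4.3.3) gave each comparison, with Benjamini-Hochberg adjustment over the tested genes. The fit was tested on simulated data. Members, comparisons and alternatives were chosen with earlier results of these data known.

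By the rule for named IDs, without gene names, at most 2 were taken in each direction: the members with the highest dry mean, and those with the largest called rise from DoG0 to DoG5 without overlap. Relative length was expected count over TPM, divided by the median of a library. Expected counts further than 1e-09 from a whole number were called fractional. No pair of libraries of a stage was identical or within counting error, with a lowest chi-square of 8.60 per degree of freedom. Alternatives were other scalings, no filter, limma 3.58.1, DESeq2 1.42.0, removal of a length trend and leaving out each library. DESeq2 and edgeR used the same rounded counts.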

Additional observations from a re-analysis of the deposited data

How the results depend on the processing

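The number of members depended on the rule. With a limit of 25% of the dry mean 85 genes met it, and with a sixteenth 6 did. With TMM-scaled CPM in place of TPM 51 did, 22 of them members. With every dry library required to reach 8 times every malted library, 0 did. Leaving out 1 library at a time gave 14, without Dry A, to 32, without Dry B or C.

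Counts of called members moved less. Leaving out 1 library at a time gave 13 to 18 for DoG1 against DoG0, 10 to 13 for DoG2 against DoG1, 10 to 12 for DoG5 against DoG0 and 0 for the 3 later steps. DESeq2 called 1 member for DoG5 against DoG4, where edgeR called 0. Of 632 values for called members under alternatives, 50 lost the call and 0 turned the direction. Beside the losses given above, calls were lost without single libraries for 5HG0465310 (DoG0 B, C, DoG1 A, B) and 5HG0424150 (DoG0 B, DoG1 B, C) at DoG1, for 1HG0061780 (DoG1 A, B, DoG2 B), 2HG0197010 and 1HG0064570 (DoG1 B, DoG2 B, C, with DoG1 A for 2HG0197010 and DoG1 C for 1HG0064570) and 6HG0548110 (DoG1 C) at DoG2, and for 2HG0170930 (DoG0 B, DoG5 A, B, C) at DoG5. The call of 5HG0517950 at DoG1 was also lost without DoG1 C and Dry A together. By method, limma with a pseudocount of 1 did not call 5HG0424150 at DoG1 (adjusted p = 0.101) or 1HG0064570 at DoG2 (adjusted p = 0.0658), and without the filter on low counts 1HG0061780 was not called at DoG5 (adjusted p = 0.0532).

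The labels do not say that a letter follows 1 malting run. Of 45 correlations of same-letter deviations between malted stages, 8 were over 0.1 (-0.355 to 0.195), and in 17 of the 45 a library correlated best with its own letter. All 3 letters were over 0.1 for DoG2 with DoG4, at 0.135, 0.124 and 0.184, and not for the other pairs of stages, so letters were not used to pair libraries. With letter as a replicate block over the malted libraries, 19 members were called for DoG1 against DoG0, 14 for DoG2 against DoG1 and 13 for DoG5 against DoG0.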

Other observations

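Closeness in ID order was also counted for all genes with at least 20 TPM in dry grain, a count chosen after the data were seen. Among the members, 8 of 27 (29.6%) had another of the 187 genes that stood at or under 12.5% of dry at DoG0 within 5 rows. The same held for 44 of the returning 160 (27.5%) and for 282 of the other 6153 dry-abundant genes (4.58%). These are descriptions, with no test. In the run of neighbours, 1HG0061750, the ID just before it, had 114 TPM at DoG4 and 11.4 TPM in Dry.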
